A study of Mus musculus with 13 samples.

Results

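Keratins are the intermediate filament proteins of epithelial cells, and 8 of their genes were followed here through 13 mouse NUT carcinoma (mNC) tumors. The set was taken from a list of genes by symbol, and the rule used no measured value. It comprises the basal layer keratins Krt5, Krt14 and Krt15 and the stress keratins Krt17, Krt6a, Krt6b, Krt16 and Krt75, the latter known for hyperproliferative, wounded or hair follicle epithelium. All 8 were found among the 56085 genes of the count table, and all 8 passed the filter on low counts in every comparison. The question of the study was whether Sox2, a transcription factor gene, is needed in these tumors. All 13 tumors carried 1 NCT allele (NCT+/-), which is switched on by a Cre recombinase.

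The oral Sox2 WT group held 4 tumors labelled KRT14-Cre; NCT+/-, and the oral Sox2 KO group held 2 tumors labelled KRT4Cre; NCT+/-; Sox2fl/fl. The study's methods give KRT14-Cre as the oral driver, so that the driver named in the KO labels differs from the methods, and if that label is right, the Cre driver and the Sox2 genotype cannot be told apart in the mouth. The pancreatic Sox2 WT group held 4 tumors labelled Pdx1-Cre; NCT+/-, and the pancreatic Sox2 KO group held 3 labelled Pdx1-Cre; NCT+/-; Sox2fl; fl. KRT14-Cre is driven by the promoter of a keratin 14 gene and acts in oral mucosa, skin and salivary gland, whereas Pdx1-Cre acts in the pancreatic lineage. The labels give neither age nor strain, and they do not say whether tumors of a group came from separate mice, so that the p-values measure the spread between these tumors. The RNA came from whole tumors, in which fewer cells of a type and less RNA per cell cannot be told apart.

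A keratin filament is built from pairs of a type I and a type II keratin. Krt5 (type II) and Krt14 (type I) form the pair of dividing basal cells in stratified epithelium, and Krt15 is a further type I keratin of basal cells and of hair follicle stem cells. Krt6a and Krt6b (type II) pair with Krt16 and Krt17 (type I) and are known from wound edges, psoriatic skin, nail and hair follicle. Krt75 is a type II keratin of the companion layer of the hair follicle. Normal pancreatic acinar cells express simple epithelial keratins rather than this set.

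On GRCm38 (GENCODE M21) all 8 genes lie on the minus strand, in the 2 keratin clusters of the mouse. The type I genes are Krt15 (ENSMUSG00000054146, chr11:100131758-100135928), Krt14 (ENSMUSG00000045545, chr11:100203162-100207548), Krt16 (ENSMUSG00000053797, chr11:100246091-100248902) and Krt17 (ENSMUSG00000035557, chr11:100256217-100261029). The type II genes are Krt75 (ENSMUSG00000022986, chr15:101563345-101573904), Krt6b (ENSMUSG00000023041, chr15:101676023-101680287), Krt6a (ENSMUSG00000058354, chr15:101689910-101694307) and Krt5 (ENSMUSG00000061527, chr15:101707070-101712898).

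Several of these genes resemble each other so closely that how reads were divided between them matters for their values. Over their coding sequence Krt6a and Krt6b were 97.8% identical, with a longest identical run of 280 bases, and Krt14 and Krt16 were 86.7% identical. Kallisto, the program that assigned the reads, compares reads with transcripts by 31-base words. Of the words of Krt6b 57.0% occurred in some other gene, and the shares were 51.9% for Krt16, 51.3% for Krt6a, 28.2% for Krt14, 15.8% for Krt17, 12.8% for Krt5, 3.74% for Krt15 and 1.48% for Krt75. Krt6a and Krt6b alone shared 1109 words, 45.9% of those of Krt6a. Krt15 and Krt75 were therefore the members with the least ambiguous reads, and Krt6a, Krt6b and Krt16 those with the most.

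The windows of 90 coding bases in which the genes of a pair differed most and least are printed because they show which stretches can and cannot separate the genes. They are taken from the GENCODE M21 transcripts and run 5′ to 3′ on the minus strand. In exon 4, at coding bases 787 to 876 of both genes, Krt6a (chr15:101692484-101692573) and Krt6b (chr15:101678303-101678392) differed at 12 of 90 bases, given in capitals.
Krt6a, exon 4: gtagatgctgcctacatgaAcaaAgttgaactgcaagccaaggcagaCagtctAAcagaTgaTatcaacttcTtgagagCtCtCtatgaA
Krt6b, exon 4: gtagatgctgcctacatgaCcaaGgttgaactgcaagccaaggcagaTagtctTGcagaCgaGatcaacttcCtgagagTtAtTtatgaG
In exon 1, at coding bases 34 to 123, both genes had the same sequence (Krt6a chr15:101694126-101694215 and Krt6b chr15:101680101-101680190).
Krt6a and Krt6b, exon 1: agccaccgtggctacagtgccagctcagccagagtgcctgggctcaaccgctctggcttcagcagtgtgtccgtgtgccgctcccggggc
Krt14 (chr11:100204445-100204534) and Krt16 (chr11:100247123-100247212) differed at 31 of 90 bases in exon 5, again in capitals.
Krt14, exon 5: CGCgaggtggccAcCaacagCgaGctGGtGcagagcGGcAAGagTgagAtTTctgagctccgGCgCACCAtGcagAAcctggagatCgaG
Krt16, exon 5: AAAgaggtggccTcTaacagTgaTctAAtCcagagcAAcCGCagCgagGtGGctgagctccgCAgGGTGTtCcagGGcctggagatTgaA
In exon 1, at coding bases 171 to 260, they too were identical (Krt14 chr11:100207196-100207285 and Krt16 chr11:100248631-100248720).
Krt14 and Krt16, exon 1: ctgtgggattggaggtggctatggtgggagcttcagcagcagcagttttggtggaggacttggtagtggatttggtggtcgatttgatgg
A read inside an exon 1 window carries no base that tells the genes of its pair apart, whereas a read across the exon 4 or exon 5 window does. The pseudogenes that share most words with the members, Gm5478, Gm5414 and Gm11597, were assigned at most 12.1, 22.0 and 181 estimated counts in a tumor. Krt42, a type I keratin gene that shares 56 words with Krt14 and 48 with Krt17, was assigned 104 to 109888 counts, most in pancreatic KO tumor 3.

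Each tumor gave 1 library. The libraries held 29394258 to 40420228 estimated counts in oral WT, 11735315 and 20432164 in oral KO, 40964533 to 46134830 in pancreatic WT and 89562790 to 120482829 in pancreatic KO tumors. The lowest count of any member was 137 (Krt75 in pancreatic KO tumor 1), so that none was at the limit of detection. Sox2 had 410 to 1487 counts in the 8 WT tumors and 0 to 2 in the 5 KO tumors, as labelled. The oral KO tumors stood apart in other tissue: the summed level of 20 skeletal muscle markers was 5873 and 3235 CPM in them (CPM, each count relative to the normalised total of its library), 39.5 to 732 in the oral WT tumors (highest in tumor 4) and 25.9 to 62.4 in the pancreatic tumors. In oral KO tumor 1 the 7SL RNA genes Rn7s1 and Rn7s2 took 16.6% of counts and protein-coding genes 59.5%, against 84.5% to 91.7% protein-coding in the other tumors. Pancreatic KO tumor 3 had a summed level of 292 CPM over 11 acinar markers, against at most 20.05 in the other 12 tumors.

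The 8 keratins made up 0.455% to 1.80% of all counts of a tumor and 59.3% to 86.1% of its counts from keratin genes. Compared per kilobase of transcript, Krt5 was the most abundant of the 8 in 11 of 13 tumors. Krt16 was the most abundant in the other two, oral WT tumor 4 and oral KO tumor 1. In the pancreatic KO group Krt5 (3049.5 ± 97.9 CPM per kilobase, SD, n = 3) lay above Krt14 (2071 ± 344) and Krt14 above Krt17 (869 ± 257) with no overlap of ranges. In the oral WT group every neighbouring pair in the order overlapped, from Krt5 (1196 ± 274, n = 4) over Krt14 (817 ± 455), Krt6a (545 ± 286), Krt16 (499 ± 625), Krt17 (481 ± 335), Krt6b (264 ± 183) and Krt15 (122 ± 75.2) to Krt75 (60.3 ± 49.0). In the pancreatic WT group the order was Krt5 (2588 ± 625, n = 4), Krt14 (2001 ± 748), Krt6a (1481 ± 414), Krt17 (759 ± 150), Krt16 (661 ± 374), Krt6b (464 ± 227), Krt15 (28.2 ± 11.2) and Krt75 (16.3 ± 3.18), with gaps in range only below Krt6a and below Krt6b. In the oral KO group Krt14 (758 ± 429, n = 2), Krt16 (714 ± 642), Krt6b (638 ± 439), Krt6a (635 ± 413) and Krt5 (513 ± 43.8) overlapped, and Krt17 (226 ± 46.3), Krt75 (44.4 ± 32.0) and Krt15 (12.3 ± 6.47) followed without overlap. Among the 8, Krt15 and Krt75 were the 2 lowest in all 4 groups.

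**Figure D1:**
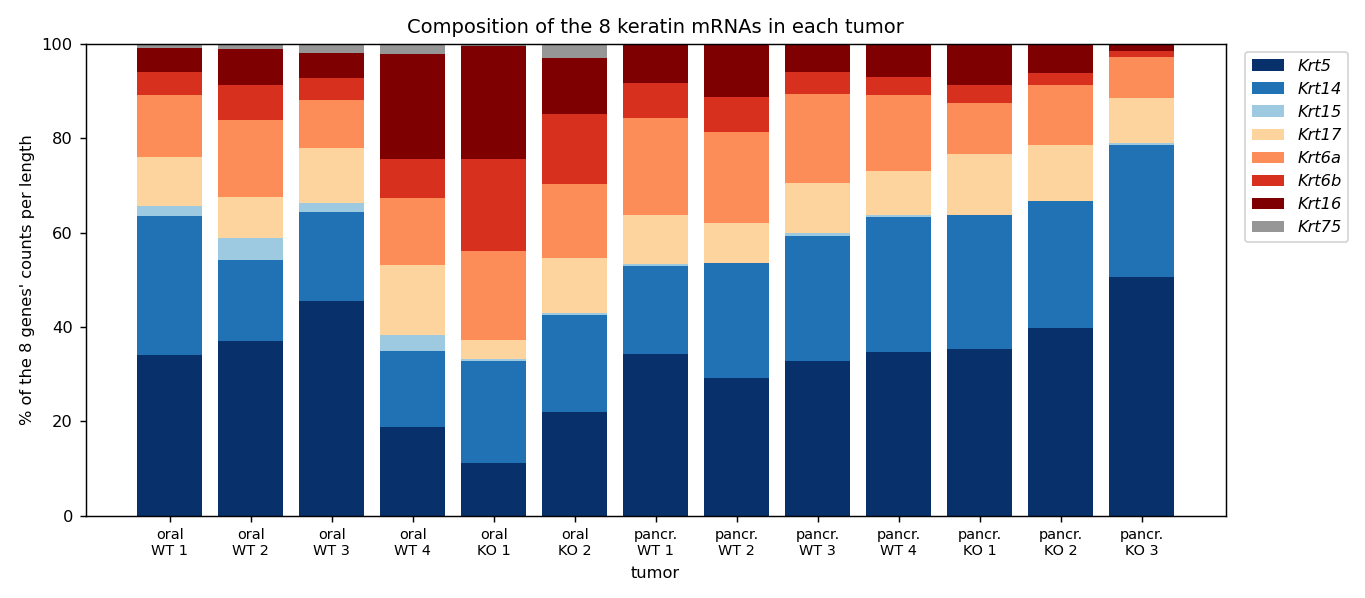
Stacked bars show, for each of the 13 tumors, the percentage that each of the 8 keratins took of their summed estimated counts per transcript length. Krt5 took 18.8% to 45.5% in oral WT, 11.1% and 21.9% in oral KO, 29.2% to 34.7% in pancreatic WT and 35.3% to 50.5% in pancreatic KO tumors, while Krt6b took 19.4% and 14.9% in the oral KO tumors and at most 8.23% in the other tumors.

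Among the basal keratins, Krt5 was the most abundant in most tumors. It stood at 3473, 2247, 2151 and 2638 CPM in oral WT tumors 1 to 4 and at 1195 and 1059 CPM in oral KO tumors 1 and 2. In the pancreas it stood at 4119, 6928, 4948 and 6746 CPM in WT tumors 1 to 4 and at 6496, 6924 and 6679 CPM in KO tumors 1 to 3. Both oral KO tumors lay below every oral WT tumor, all oral tumors lay below all pancreatic tumors, and the pancreatic KO values lay inside the WT range.

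Krt14, the type I partner of Krt5, varied more within groups. Its levels were 2306, 809, 691 and 1745 CPM in the oral WT tumors and 1802 and 771 CPM in oral KO tumors 1 and 2. They were 1731, 4472, 3085 and 4300 CPM in the pancreatic WT tumors and 4030, 3638 and 2880 CPM in the pancreatic KO tumors. KO and WT tumors overlapped in both tissues.

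Krt15 was a minor transcript whose oral genotypes lay far apart. The oral WT tumors held 161, 219, 73.5 and 377 CPM, and oral KO tumors 1 and 2 held 28.8 and 13.2 CPM. The pancreatic WT tumors held 45.6, 22.7, 56.4 and 67.3 CPM and the pancreatic KO tumors 13.7, 13.5 and 26.2 CPM. Every oral WT tumor lay above every other tumor, both oral KO tumors lay below the oral WT range, and in the pancreas only KO tumor 3 overlapped with the WT tumors, namely with WT tumor 2.

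Among the stress keratins, Krt17, which is also expressed in basal cells of glands, stood at 748, 366, 389 and 1480 CPM in the oral WT tumors and at 300.4 and 402 CPM in oral KO tumors 1 and 2. It stood at 877, 1415, 1124 and 1292 CPM in the pancreatic WT tumors and at 1674, 1464 and 904 CPM in the pancreatic KO tumors. Oral WT tumor 4 was set apart from the other oral tumors, and the genotypes overlapped in both tissues.

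Krt6a and Krt6b are near-identical copies whose values depend on how reads were divided between them. Krt6a had 1387, 1034, 497 and 2051 CPM in the oral WT tumors, 2113 and 782 CPM in oral KO tumors 1 and 2, 2567, 4729, 2969.6 and 3232 CPM in the pancreatic WT tumors and 2077, 2281 and 1185 CPM in the pancreatic KO tumors. Krt6b had 504, 455, 227 and 1177 CPM in the oral WT tumors, 2119.7 and 733 CPM in oral KO tumors 1 and 2, 893, 1787, 697 and 767 CPM in the pancreatic WT tumors and 683, 444 and 165 CPM in the pancreatic KO tumors. For both genes the 3 pancreatic KO tumors lay below all 4 pancreatic WT tumors, and the oral genotypes overlapped.

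Krt16, the type I partner of the Krt6 proteins, was the most uneven of the more abundant members. It had 377, 329.6, 177 and 2243 CPM in the oral WT tumors and 1828 and 407 CPM in oral KO tumors 1 and 2, and the SD of the oral WT group exceeded its mean (782 ± 978, n = 4). In the pancreas it had 686, 1885, 612 and 956 CPM in the WT tumors and 1147, 755 and 139 CPM in the KO tumors. Oral WT tumor 4, oral KO tumor 1, pancreatic WT tumor 2 and pancreatic KO tumor 1 held the most in their groups, and the genotypes overlapped in both tissues.

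Krt75 was low in the pancreas and higher in the mouth. It had 121, 97.7, 134 and 436 CPM in the oral WT tumors and 71.1 and 219 CPM in oral KO tumors 1 and 2. The pancreatic WT tumors had 52.7, 62.2, 59.0 and 38.8 CPM and the pancreatic KO tumors 1.22, 41.0 and 8.70 CPM. The oral range lay above the pancreatic range, and within the pancreas KO tumor 2 overlapped with WT tumor 4.

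**Figure D2:**
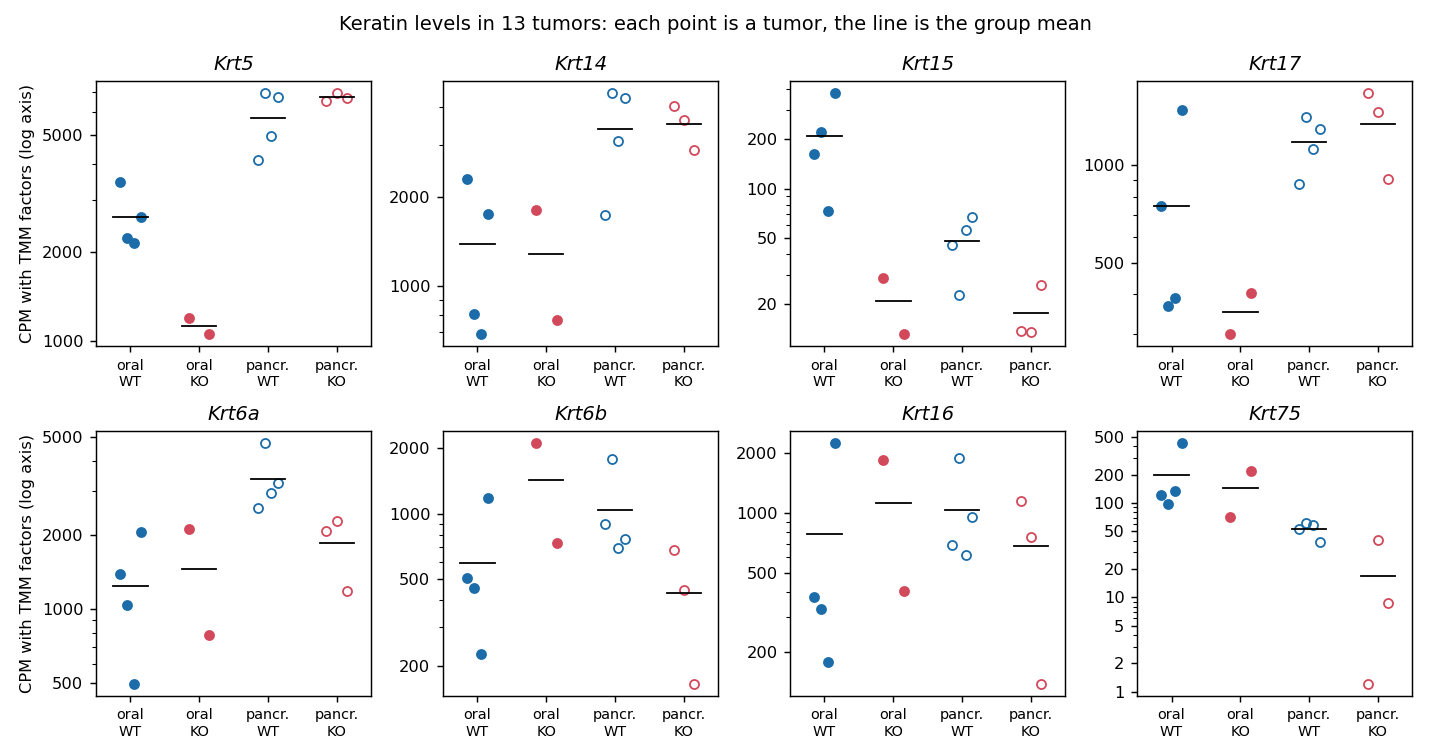
Each panel shows the level of 1 keratin gene in CPM with TMM factors on a log axis, with a point for each of the 13 tumors, the mean of each group as a line, WT in blue, KO in red, oral tumors as filled and pancreatic tumors as open points. On this scale Krt5 was at most 3473 CPM in oral and at least 4119 CPM in pancreatic tumors, and Krt15 was at 73.5 CPM or more in the oral WT tumors alone.

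Sox2 KO was compared with WT within the mouth first. Of the 8 keratins 1 was called, Krt15, which fell (more than a 2-fold difference with an adjusted p under 0.05, edgeR quasi-likelihood test with Benjamini-Hochberg adjustment). That is 12.5% of the members, against 11.7% of the 22342 genes tested that were called in this comparison and 2.89% that were called lower. Krt15 had a log2 fold change of -3.11 (SE 0.73, adjusted p = 0.0398), an 8.65-fold lower level in the KO tumors. Krt5 and Krt15 were the 2 members whose groups did not overlap, both with KO lower, where 49.5% of all genes did not overlap between these groups of 4 and 2 and 29.3% did so with KO lower. Krt5 had a log2 fold change of -1.04 (SE 0.29, adjusted p = 0.0537) and did not pass. It was called by DESeq2 at -1.08 (adjusted p = 0.00223), in 1 fit of all 13 tumors at -1.12 (adjusted p = 0.00802) and without a count filter at -1.13 (adjusted p = 0.0288). With the DESeq2 value shrunk by apeglm Krt5 was at -0.985, short of the 2-fold threshold. Nor was it called by edgeR among protein-coding genes alone (-0.85, adjusted p = 0.124) or without any single tumor (-1.15 to -0.87).

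The other 6 oral values were not called and had wide intervals. The log2 fold change of Krt14 was 0.09, with a 95% interval of -1.27 to 1.45, and that of Krt17 was -0.90 (interval -2.33 to 0.53). Those of Krt6a, Krt6b and Krt16 were positive at 0.42 (interval -0.97 to 1.82), 1.48 (interval -0.10 to 3.05) and 0.72 (interval -1.87 to 3.32). Krt75 had -0.27 (interval -2.02 to 1.48). The intervals of Krt14, Krt16 and Krt75 hold 2-fold differences in both directions, and those of Krt17, Krt6a and Krt6b in 1 direction.

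The call of Krt15 rested on few tumors and on the genes tested with it. Of 16 alternative settings 9 kept the call and 7 lost it. Among those that kept it were DESeq2 (-3.16, adjusted p = 5.45e-06) and the edgeR fits without oral WT tumor 3 or 4. Without oral WT tumor 1, oral WT tumor 2, oral KO tumor 1 or oral KO tumor 2 the log2 fold change was -3.21, -3.09, -3.81 or -2.63 and the adjusted p 0.0754, 0.0954, 0.0970 or 0.166, and where a single KO tumor was left it was assumed to vary like the WT tumors. The call was also lost without a count filter (-3.22, adjusted p = 0.0818) and among protein-coding genes alone (-2.94, adjusted p = 0.0871). All 20 skeletal muscle markers had positive log2 fold changes between the same groups (median 3.87, 3 called), and 2 of 10 fibroblast markers fell. Of 10 leukocyte markers tested 1 fell, Cd4, from 14.5 to 2.65 CPM on average, and 3 had positive values (median -0.92), with a summed level of 224 to 402 CPM in oral WT and of 129 and 156 CPM in oral KO. The part of these markers in the result was not tested. With levels scaled to 18 general epithelial genes in place of all genes, the log2 fold change of Krt15 was -2.81 with an adjusted p of 0.000709. On that scale Krt6b was called as well, at 1.71 (adjusted p = 0.0316), and Krt5 was at -0.69 (adjusted p = 0.6004). The epithelial scale moved the median of all genes by 0.37, and 3707 genes were called, 92.0% of them higher in the KO tumors.

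In the pancreas, where depth and group size were larger, none of the 8 keratins was called between KO and WT, against 0.629% of the 24653 genes tested. At an unadjusted p under 0.05 there were 3 (Krt15, Krt6a and Krt6b), against 15.9% of all genes, and DESeq2 called 1, Krt15, at -1.45 (adjusted p = 0.0103). The edgeR values were -1.45 for Krt15 (SE 0.41, adjusted p = 0.151), -0.88 for Krt6a (SE 0.29, adjusted p = 0.192) and -1.28 for Krt6b (SE 0.53, adjusted p = 0.297). Krt6a and Krt6b were the 2 members with no overlap between genotypes, both with KO lower, and 15.5% of all genes did not overlap, 7.93% with KO lower. With the counts of Krt6a and Krt6b summed into 1 gene the log2 fold change was -0.97 (adjusted p = 0.201).

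The abundant basal pair had narrow intervals in the pancreas. Krt5 showed a log2 fold change of 0.22 with a 95% interval of -0.26 to 0.71, and Krt14 had 0.04 with an interval of -0.68 to 0.76. Krt17 had 0.18 (interval -0.37 to 0.74). For these 3 genes a change of more than 2-fold in either direction lies outside the interval. Krt16, at -0.62 (interval -2.23 to 1.00), and Krt75, at -1.67 (interval -3.90 to 0.56), were not measured closely enough for such a bound. Pancreatic KO tumor 3, the tumor with acinar markers, held the lowest Krt6a, Krt6b and Krt16 of its group. Without it the log2 fold changes of Krt6a, Krt6b and Krt15 were -0.63, -0.88 and -1.83, none of them called.

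**Figure D3:**
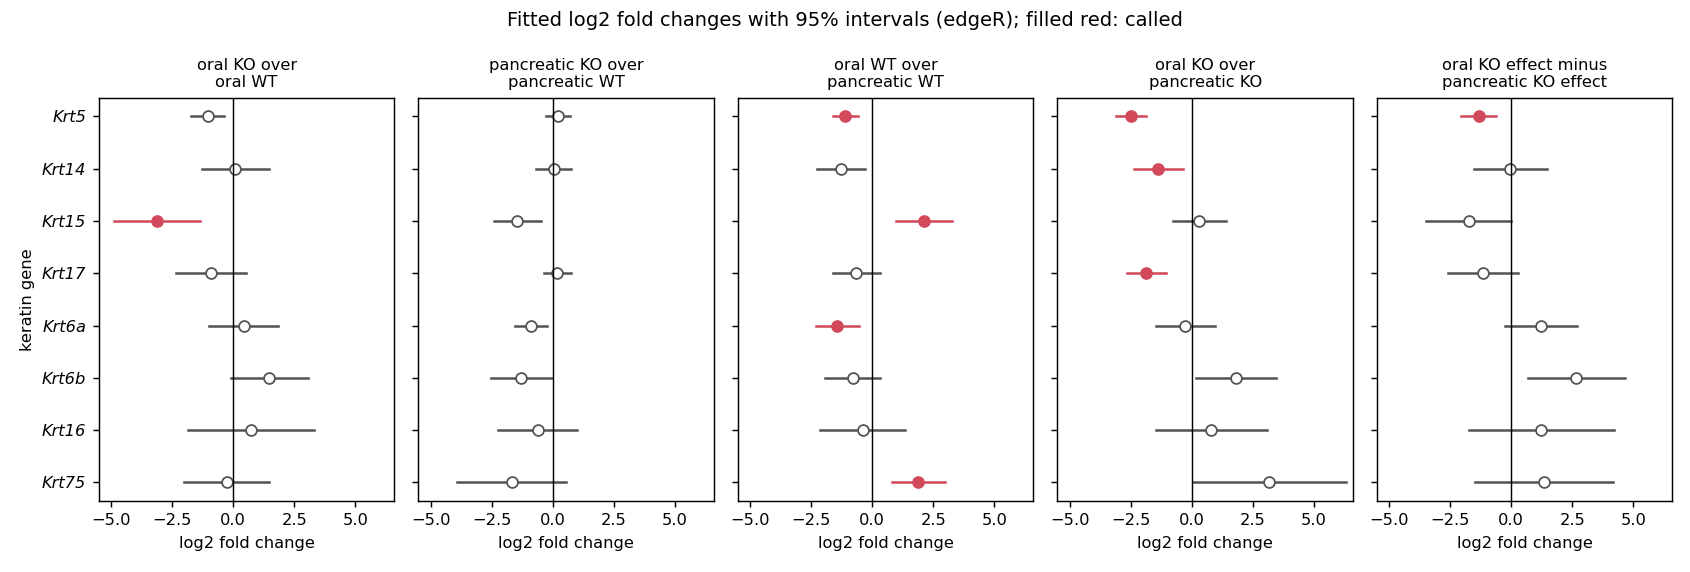
Points are log2 fold changes of the 8 keratins in the 4 comparisons between groups and, at the right, the oral KO effect minus the pancreatic KO effect, with lines for the 95% intervals and filled red points for genes called by edgeR. By that test Krt15 was the only member called in the oral KO comparison (-3.11), none was called in the pancreatic one, and Krt5 was called lower in the mouth in both comparisons between tissues (-1.10, which turned to 0.14 on the epithelial scale, and -2.49) and in the difference of the KO effects (-1.33).

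The difference between the KO effects of the tissues was tested as an interaction in 1 fit of all 13 tumors. Of the 8 keratins 1 was called, Krt5, or 12.5%, where 12.3% of the 25836 genes tested were called and 4.85% with a lower oral effect. The oral effect of Krt5 was lower than the pancreatic one by a log2 difference of -1.33 (SE 0.33, adjusted p = 0.0234). Krt6b had the largest difference of the 8, 2.66 (SE 0.91, adjusted p = 0.0665), which did not pass. Krt15, which had negative log2 fold changes in both tissues, had a difference of -1.75 (95% interval -3.49 to -0.01, adjusted p = 0.146). The differences of Krt6a, Krt16 and Krt75 were 1.22, 1.24 and 1.35 and those of Krt17 and Krt14 were -1.15 and -0.03, all with intervals that include 0. The call of Krt5 was lost without oral KO tumor 2, pancreatic WT tumor 3 or pancreatic KO tumor 3, at adjusted p of 0.0718, 0.0528 and 0.0507, with log2 differences of -1.25, -1.28 and -1.33. Scaled to general epithelial genes the difference was -1.37 for Krt5 (adjusted p = 0.220) and 2.53 for Krt6b (adjusted p = 0.0438).

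Between tissues the WT tumors differed in 4 of the 8 keratins, 50%, against 16.5% of the 23164 genes tested (9.3% higher in the mouth and 7.24% lower). Relative to all genes, the 2 abundant type II keratins Krt5 and Krt6a were lower in oral than in pancreatic tumors, with log2 fold changes of -1.10 (SE 0.23, adjusted p = 0.00913) and -1.43 (SE 0.39, adjusted p = 0.0288). The 2 least abundant members were higher in oral tumors, Krt15 by 2.12 (SE 0.50, adjusted p = 0.0175) and Krt75 by 1.89 (SE 0.47, adjusted p = 0.0215) on the log2 scale. These 4 were also the members without overlap between the WT groups, against 27.6% of all genes. Krt14 had -1.28 (95% interval -2.27 to -0.29, adjusted p = 0.0652) and was not called, nor were Krt17 at -0.65, Krt6b at -0.80 and Krt16 at -0.39.

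The direction for Krt5 depended on the scale. Of 18 general epithelial genes 11 were called lower in oral WT than in pancreatic WT tumors and none higher (median log2 fold change -1.15), and of 10 fibroblast markers 9 were called higher. The summed level of the epithelial genes was 2789.8 to 6993 CPM in oral WT and 9495 to 12525 CPM in pancreatic WT tumors, and that of the fibroblast markers was 9586 to 19989 and 1189 to 2429 CPM. Scaled to those epithelial genes, which moved the median of all genes by 1.274 toward the oral side, Krt5 was at 0.14 (adjusted p = 0.720) and Krt6a at -0.32 (adjusted p = 0.376). Krt15 at 3.16 (adjusted p = 0.000115) and Krt75 at 3.02 (adjusted p = 7.38e-05) stayed called. On that scale 14849 of the 23164 genes tested were called, 95.5% of them higher in the mouth. The call of Krt6a was also lost with Krt6a and Krt6b summed (-1.26, adjusted p = 0.0571). Oral WT tumor 4 weighed on the count: without it 7 of the 8 were called, all but Krt14, with Krt17 at -1.22, Krt6b at -1.37 and Krt16 at -1.79, while Krt75 was at 1.16. Without pancreatic WT tumor 3 the count was 2 (Krt5 and Krt15) and without pancreatic WT tumor 4 it was 1 (Krt15).

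Among KO tumors 3 of the 8 keratins were called between tissues, 37.5%, against 25.2% of the 24787 genes tested, and all 3 were lower in the mouth, against 10.7% of genes. Krt5 differed by a log2 fold change of -2.49 (SE 0.25, adjusted p = 0.00577), Krt17 of -1.86 (SE 0.33, adjusted p = 0.0132) and Krt14 of -1.37 (SE 0.42, adjusted p = 0.0497). Krt5 was thus 5.62-fold lower in oral than in pancreatic KO tumors, where it was 2.15-fold lower among WT tumors. There were 5 members without overlap, the 3 called and also Krt6b and Krt75, which were higher in the mouth at 1.81 (adjusted p = 0.0844) and 3.18 (adjusted p = 0.103), and 62.2% of all genes did not overlap between these groups of 2 and 3. Krt15, which separated the tissues among WT tumors, was at 0.32 (95% interval -0.78 to 1.42) among KO tumors. All 20 skeletal muscle markers were positive and 18 were called higher in the oral KO tumors, and 7 of 18 general epithelial genes were called lower. Scaling to the epithelial genes moved the median of all genes by 1.26 toward the oral side, and 11318 genes were called, 94.5% of them higher. On that scale Krt5 was at -1.26 (adjusted p = 0.119) and Krt17 at -0.51 (adjusted p = 0.498). Krt15, Krt6b and Krt16 were among the genes called higher, at 1.37, 2.84 and 1.74. The call of Krt14 was lost without oral KO tumor 2 or any 1 of the 3 pancreatic KO tumors (adjusted p 0.0809 to 0.131), and that of Krt17 without oral KO tumor 1 (-1.62, adjusted p = 0.0570).

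Ratios of 2 keratins within the same tumor do not depend on depth or on the scaling between tumors, and they are given per transcript length as descriptions, since they were chosen with the levels known. The ratio of Krt6b to Krt6a was 0.371, 0.448, 0.465 and 0.585 in oral WT and 1.02 and 0.956 in oral KO tumors. It was 0.355, 0.385, 0.239 and 0.242 in pancreatic WT and 0.335, 0.198 and 0.142 in the pancreatic KO tumors. Nearly equal amounts of the 2 copies were thus listed in the oral KO tumors alone, while in the other 11 tumors Krt6a exceeded Krt6b. The exon 4 window of these genes carries the kind of bases on which this division rests, and the reads themselves were not used here.

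The ratio of Krt6a to Krt5, a stress keratin against a basal keratin of the same type, parted the pancreatic genotypes. It was 0.601, 0.658, 0.579 and 0.462 in the pancreatic WT tumors and 0.308, 0.318 and 0.171 in the pancreatic KO tumors. In the mouth it was 0.385, 0.444, 0.223 and 0.750 in the WT tumors and 1.71 and 0.712 in the KO tumors. The KO tumors thus lay below the WT tumors in the pancreas, and in the mouth KO tumor 1 lay above the WT range and KO tumor 2 within it.

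The whole set was less clearly divided. The summed stress keratins relative to the summed basal keratins were 0.526, 0.696, 0.507 and 1.61 in oral WT and 2.01 and 1.33 in oral KO tumors. They were 0.872, 0.864, 0.670 and 0.570 in the pancreatic WT tumors and 0.568, 0.498 and 0.267 in the pancreatic KO tumors. The pancreatic genotypes were separated by little, and oral WT tumor 4 lay between the oral KO tumors.

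Within the basal pair, Krt14 relative to Krt5 was 0.859, 0.466, 0.416 and 0.856 in oral WT and 1.95 and 0.942 in oral KO tumors, so that Krt14 exceeded Krt5 in oral KO tumor 1 alone. In the pancreas this ratio ranged from 0.544 to 0.835 in WT and from 0.558 to 0.803 in KO tumors. Type I keratins summed over the set relative to type II keratins reached at most 1.32, in oral WT tumor 4, and the ranges of all 4 groups overlapped.

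**Figure D4:**
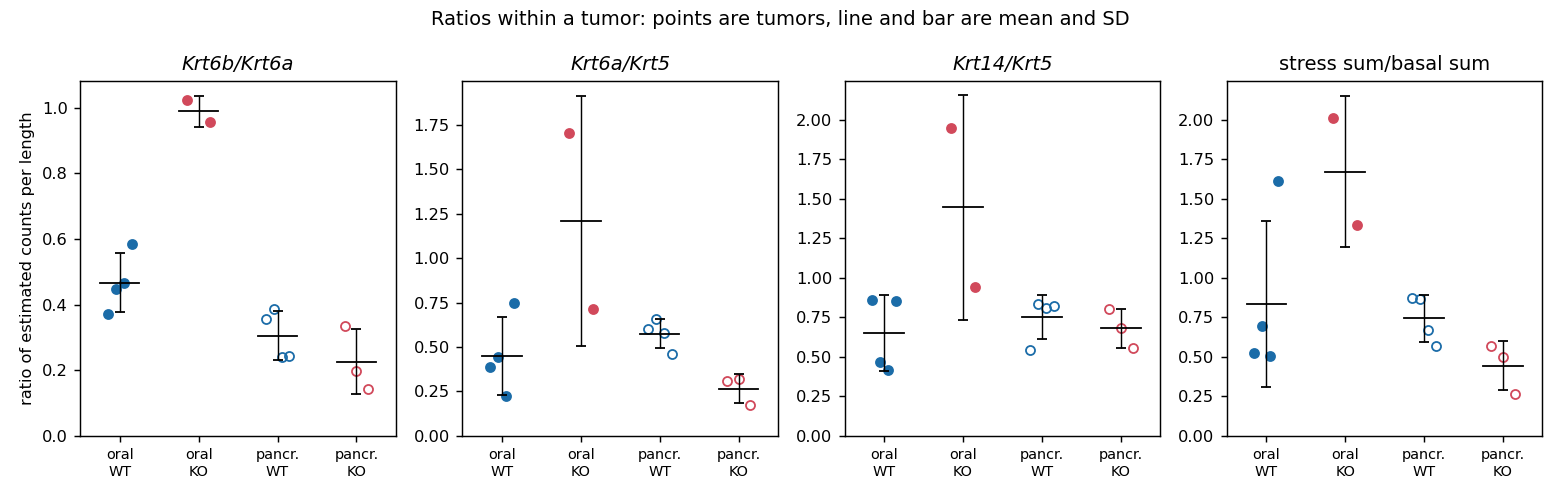
The panels show 4 ratios of estimated counts per transcript length within a tumor, with a point for each tumor and the mean and SD of each group (WT blue, KO red, oral filled, pancreatic open). Krt6b over Krt6a was 0.956 and 1.02 in the oral KO tumors against 0.142 to 0.585 elsewhere, and Krt6a over Krt5 was 0.171 to 0.318 in pancreatic KO against 0.462 to 0.658 in pancreatic WT tumors.

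Other genes of the basal layer and of the stress response were read from lists. Of 22 basal layer genes, among them integrins, hemidesmosome and laminin genes and Trp63, none was called between KO and WT in the mouth (median log2 fold change -0.28, with 10 positive) or in the pancreas (median -0.02, with 11 positive). A missing call in the mouth, where the KO group held 2 tumors, does not exclude a change. In simulated data with 200 changed genes, 31% of those given a log2 fold change of 2 in either direction were called there. That share does not carry over to the real data. The Benjamini-Hochberg cutoff depends on how many genes change, and 2614 were called in the real oral comparison. In the interaction 1 of the 22 was called, Itgb1, the integrin beta 1 gene, at -1.40 (SE 0.40, adjusted p = 0.0368). Between the WT tumors 7 were called lower in the mouth, led by Cd44 at -1.16, Itga6 at -2.72, Col17a1 at -1.32 and Fgfr3 at -1.52, and 1 was called higher. Krt5 and Krt6a thus lay on the side of these genes in that comparison, and Krt15 and Krt75 on the other. Of all genes tested, 11.7% were called between KO and WT in the mouth, 0.629% in the pancreas and 12.3% in the interaction. Between WT tumors 7.24% of all genes were called lower in the mouth and 9.3% higher.

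Of 20 barrier stress genes, which encode alarmins, cornified envelope precursors, cytokines, connexins and EGF receptor ligands, 1 rose in the oral KO tumors, Il1b at 2.13 (SE 0.32, adjusted p = 0.0189), and 18 had positive values (median 0.90). In the pancreas none was called and none was positive (median -1.04), while the median over all genes was 0.02. The interaction called 3 of the 20 with a higher oral effect, Il1f6 at 6.49 (SE 1.68, adjusted p = 0.0285), Il1b at 2.97 (SE 0.84, adjusted p = 0.0357) and Il1f9 at 3.34 (SE 0.99, adjusted p = 0.0437), which encode cytokines of the IL-1 family. Between WT tumors 8 were called lower in the mouth, with Gjb2 at -2.63, Il1b at -2.50, Hbegf at -3.07 and Il1a at -2.02 in the lead, and none was called higher. The shares of all genes called were 11.7% in the mouth, 0.629% in the pancreas, 12.3% in the interaction and, between WT tumors, 7.24% lower and 9.3% higher.

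Of 14 genes of transcription factors known to act on keratin expression, none was called between KO and WT in either tissue, with medians of -0.34 in the mouth and 0.05 in the pancreas. Between WT tumors 3 were called higher in the mouth, including Gli2 at 2.20 and Gli1 at 2.58, the effectors of Hedgehog signalling. Another 4 were called lower, including Junb at -1.66 and Fosl1 at -2.20, which are members of the AP-1 family. For all genes tested the shares called were 11.7% in the mouth, 0.629% in the pancreas and, between WT tumors, 9.3% higher and 7.24% lower.

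Of the 45 other keratin genes of the table, 39 were tested in the mouth and 33 in the pancreas. In the mouth 2 were called, both higher, against 11.7% of all genes, and 15 had positive values (median -0.70). In the pancreas 2 were called, both lower, against 0.629% of all genes, and 7 had positive values (median -0.96). The interaction called 3 of 43, against 12.3% of all genes. Krt4 and Krt13, the pair of the suprabasal layers of mucosa, had larger log2 fold changes in the pancreas than any of the 8 members. Krt4 had 186, 499, 199 and 348 CPM in the oral WT tumors and 1332 and 941 CPM in oral KO tumors 1 and 2, and it rose with a log2 fold change of 2.08 (SE 0.41, adjusted p = 0.0268). In the pancreas Krt4 had 2617, 2055, 2915 and 1459 CPM in the WT tumors and 217, 183 and 226 CPM in the KO tumors, and it fell by 3.46 on the log2 scale (SE 0.28, adjusted p = 0.00256). Krt13 fell by 3.69 in the pancreas (SE 0.43, adjusted p = 0.0163). The interaction was 5.46 for Krt4 (adjusted p = 0.000462) and 5.14 for Krt13 (adjusted p = 0.00374). Krt26, a hair follicle keratin at under 1 CPM in every tumor, was the other keratin called in the oral comparison (2.98, adjusted p = 0.0290). The pancreatic intervals of 7 of the 8 members, all but Krt75, end above the value of Krt4.

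The genes with profiles most like each member were found by the root mean square (RMS) difference of log2 CPM over the 13 tumors, each profile centred on its mean, among 14142 protein-coding genes. For Krt5 they were Serf1 (0.170) and Lad1 (0.194), against an RMS of 0.930 for the profile of Krt5 itself. For Krt14 they were Serpinb5 (0.286) and Sfn (0.301), for Krt17 Tnik (0.262) and Cltb (0.289), and for Krt6a Dsp (0.264) and Plcd1 (0.301). Krt6b was nearest to Dsg1b (0.385) and Trpv3 (0.392), and Krt16 to Krt6b (0.529) and Nipal1 (0.587), so that 1 pair of members was joined by this measure. Krt15, with Glul (0.723) and Ell3 (0.767), and Krt75, with Kcnb2 (1.12) and Gm49394 (1.14), had no close neighbour relative to the others. Lad1 encodes ladinin of the basement membrane zone, Sfn the protein 14-3-3 sigma, Serpinb5 the serpin maspin, and Dsp and Dsg1b the desmosomal proteins desmoplakin and a desmoglein.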

How the data were processed

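RNA of 13 tumors was depleted of ribosomal RNA and sequenced from stranded libraries. Per the submitters' processing notes and the study's methods, the authors trimmed reads with Trim Galore 0.6.10, checked them with FastQC 0.12.1 and quantified them with kallisto 0.50.0 on GENCODE M23 (GRCm38). They summed them per gene with tximport and deposited estimated counts without scaling, of which 27.3% are not whole. The table holds 56085 genes, 55332 with values, and 55141 identifiers were found in GENCODE M21, which gave symbols, positions and coding sequences.

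After rounding, the analysis used R 4.3.3 and edgeR 4.0.16 (TMM, robust quasi-likelihood fit, Benjamini-Hochberg adjustment over all genes tested). A gene entered a fit if 2 or more of its tumors had 10 or more counts, and it was called if its adjusted p was under 0.05 and its log2 fold change beyond 1 in either direction. Comparisons were fitted on their groups alone and the interaction on all 13 tumors. Levels are CPM with TMM factors. Intervals cover the spread between tumors, and depth (see the totals) limits none of the 8 genes.

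The rule that lists the 8 genes uses no measured value, but the genes, their comparisons and all gene lists were chosen with earlier results of these data known. Named are the 8 keratins, Sox2, the 2 nearest protein-coding profiles with a mean of at least 1 CPM, and at most 4 called genes of a list by smallest adjusted p. Il36a and Il36g are listed as Il1f6 and Il1f9. Alternatives used DESeq2 1.42.0, apeglm 1.24.0, other filters and scalings, and fewer tumors. Krt6a and Krt6b were summed as an alternative chosen after seeing the data. Scripts were tested on simulated data, in which 200 genes were given a log2 fold change of 2 in either direction. Of these 31% were called in the oral KO comparison and 73% in the pancreatic one.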

Additional observations from a re-analysis of the deposited data

Results flagged for a closer look

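The KO effect on Krt5 differed between the tissues by the interaction test of the difference itself, with an oral minus pancreatic log2 difference of -1.33 (SE 0.33, adjusted p = 0.0234 by edgeR). Of all genes tested 12.3% were called in that test. As given above, the call of Krt5 was lost without some single tumors and on the epithelial scale. Both oral KO tumors lay below all 4 oral WT tumors, and the 3 pancreatic KO tumors lay within the range of the 4 pancreatic WT tumors. The 2 oral KO tumors also held the summed skeletal muscle marker levels of 5873 and 3235 CPM given above, whose part in this difference was not tested.

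Oral WT tumor 4 stood far from the other 3 oral WT tumors in the CPM of Krt16 (2243 against 177 to 377) and of Krt75 (436 against 97.7 to 134). Its gap to the nearest tumor, as a share of the range of the group, was 0.903 for Krt16 and 0.893 for Krt75, past Dixon's 95% critical value for 4 samples. On log2 CPM these shares were 0.703 and 0.790, within it. Only the 2 WT groups, with 4 tumors each, could be tested, so that 16 sets of values were tested and no KO tumor, and chance flags about 1 set in 20. Without this tumor the oral KO against WT log2 fold changes of Krt16 and Krt75 were 2.14 and 0.48, neither of them called. In that fit edgeR called Krt6b at 2.06 (adjusted p = 0.0465) beside Krt15.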

How the results depend on the processing

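Of 701 log2 fold changes of single genes under the alternatives, 598 kept their direction and their side of the threshold, 41 lost a call, 26 gained one and 36 changed sign. The causes of these changes were not tested. In the mouth the count of members called, 1, became 2 with DESeq2 (Krt5 and Krt15), 2 in 1 fit of all 13 tumors, 2 on the epithelial scale and 0 among protein-coding genes alone, and 0 to 2 without each tumor. Without a count filter it stayed at 1, but Krt5 was called at -1.13 in place of Krt15. In the pancreas it went from 0 to 1 with DESeq2 and 1 with apeglm shrinkage, both for Krt15, and stayed at 0 without each tumor. Between WT tumors it went from 4 to 1 without a filter and 2 on the epithelial scale, and to 1 to 7 without each tumor. The interaction count, 1, became 2 with 10 counts in every tumor, 2 with DESeq2 and 0 among protein-coding genes, and 0 to 2 without each tumor.

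Whether tumor numbers pair the tumors was not settled by their profiles. With only 2 oral KO tumors, their deviations from the group mean mirror each other, so that the oral correlations are not separate checks. Deviations of tumors with the same number correlated at -0.10 and -0.09 between oral genotypes and at 0.39, -0.07 and -0.12 between pancreatic ones, where 1 of 3 KO tumors correlated best with the WT tumor of its number. With the number as a block, the count of members called was 0 in the mouth, where Krt15 was at -3.07 (adjusted p = 0.138), and 0 in the interaction, where Krt5 was at -1.53, Krt14 at -0.34, Krt15 at -1.93, Krt17 at -0.67, Krt6a at 1.14, Krt6b at 3.03, Krt16 at 2.37 and Krt75 at 3.22. It was 0 in the pancreas, 3 between WT and 4 between KO tumors. The block changed the sign of Krt14 (-0.011) and Krt75 (0.41) in the mouth and of Krt16 (-0.029) between KO tumors.

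Other changes of sign, none of a called value except Krt5 between WT tumors (0.14 on the epithelial scale), were Krt14 in the mouth without a filter (-0.019) and in 1 fit of all 13 tumors (-0.0053), and Krt75 there on the epithelial scale (0.49). On that scale Krt17 (0.43), Krt6b (0.30) and Krt16 (0.57) also changed sign between WT tumors. Between KO tumors Krt6a changed sign among protein-coding genes (0.0038), on the epithelial scale (0.74) and summed with Krt6b (0.42). In the interaction Krt14 changed sign with 10 counts in every tumor (0.15) and among protein-coding genes (0.15). Without each tumor in turn, values in the mouth ran from -0.68 to 0.60 for Krt14, -0.50 to 0.99 for Krt6a, -0.77 to 2.14 for Krt16 and -1.26 to 0.48 for Krt75, and in the pancreas from -0.19 to 0.20 for Krt14. They ran from -1.79 to 0.057 for Krt16 between WT tumors, and between KO tumors from -0.30 to 0.80 for Krt15, -0.62 to 1.54 for Krt16 and -1.11 to 0.30 for Krt6a. In the interaction they ran from -0.81 to 0.45 for Krt14 and -0.25 to 2.64 for Krt16. Without TMM factors the mean of Krt5 in the oral KO tumors was 1259 CPM in place of 1127. The epithelial scale shifted the median of all genes by 0.37 in the mouth, 0.37 in the pancreas and 1.26 between KO tumors, and raised the share of calls that were higher from 75.3% to 92.0%, from 53.5% to 76.5% and from 57.7% to 94.5%, and between WT tumors from 56.2% to 95.5%. In the interaction that share went from 60.4% to 82.5%.

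Counts of all genes called moved by more than 1.5 times as well. In the mouth 2614 became 4004 with DESeq2, 5082 in 1 fit of all 13 tumors, 65 with the block and 27 among protein-coding genes, and 36 to 1214 without oral WT tumor 1, 2 or 3 or either oral KO tumor. In the pancreas 155 became 239 without a filter, 75 with 10 counts in every tumor, 1111 with DESeq2, 890 with apeglm, 10 among protein-coding genes, 247 on the epithelial scale, 590 with the block and 92 in 1 fit, and 43 to 269 without each tumor. Between WT tumors 3832 became 2431 with 10 counts in every tumor and 14849 on the epithelial scale. Between KO tumors 6252 became 2869 among protein-coding genes, 11318 on the epithelial scale and 3697 with the block. In the interaction 3168 became 791, 725 and 1184 under these 3 settings.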
